A study of Mus musculus with 34 samples.

Results

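HNF4α binding was mapped across the liver genome by ChIP-seq, the sequencing of the DNA that an antibody against a protein brings down with it. Every peak of the deposited HNF4α list was taken, 24253 of the 72923 peaks in the 3 peak lists of the series. The livers came from male C57B/6 mice, 10 weeks old, labelled as *Hnf4α* floxed and collected at zeitgeber time 10, that is 10 h after lights on. By the study's methods these controls received an AAV8 vector that expresses EGFP from the hepatocyte-directed TBG promoter, so they carried floxed but undeleted *Hnf4α*. The labels list 2 HNF4α libraries of this group. The authors pooled them before calling peaks, so no spread between livers can be given and all intervals and p-values cover counting error over peaks, which are not independent of their neighbours. The HDAC3 and PROX1 lists used beside it come from other livers, with 3 libraries each. Their titles name them only as control, and they were also 10 weeks old and collected at zeitgeber time 10.

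HNF4α is a nuclear receptor that binds DNA as a homodimer, at elements made of 2 receptor hexamers in tandem. In hepatocytes it holds up the genes of blood proteins, lipid transport and intermediary metabolism, and it sits in a network of factors with C/EBP, FOXA, HNF1 and ONECUT proteins. HDAC3 is a histone deacetylase that works in the NCoR corepressor complex, and PROX1 is a homeobox corepressor partner of nuclear receptors in liver.

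The HNF4 core element searched here was CAAAGTCCA, on either strand, in windows of 200 bp around the peak centres. The peaks shown first are the highest of the windows of *Cfb*, which encodes complement factor B, *Proz*, which encodes the coagulation cofactor protein Z, *Cyp8b1*, which encodes the sterol 12α-hydroxylase of bile acid synthesis, the fatty acid elongase gene *Elovl6*, and *Hamp*, which encodes the iron hormone hepcidin. Each holds the exact element, shown in capitals. Coordinates are on mm9, the forward strand is given 5′ to 3′, and an element on the reverse strand appears as TGGACTTTG.
Cfb promoter, chr17:34999444-34999606: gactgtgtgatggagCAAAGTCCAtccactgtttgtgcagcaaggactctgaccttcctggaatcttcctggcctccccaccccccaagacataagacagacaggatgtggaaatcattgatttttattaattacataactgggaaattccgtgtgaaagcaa
Proz promoter, chr8:13060878-13061043: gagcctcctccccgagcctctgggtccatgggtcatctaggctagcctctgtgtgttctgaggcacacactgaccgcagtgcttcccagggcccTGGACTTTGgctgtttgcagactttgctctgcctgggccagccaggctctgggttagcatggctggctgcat
Cyp8b1 promoter, chr9:121825392-121825555: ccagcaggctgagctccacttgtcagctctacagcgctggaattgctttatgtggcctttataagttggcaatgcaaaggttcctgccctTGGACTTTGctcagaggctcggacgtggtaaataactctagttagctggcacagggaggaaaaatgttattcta
Elovl6 intron, chr3:129267849-129268006: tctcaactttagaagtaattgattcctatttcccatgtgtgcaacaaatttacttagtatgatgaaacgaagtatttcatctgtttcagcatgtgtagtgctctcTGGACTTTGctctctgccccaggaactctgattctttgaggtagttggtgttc
Hamp window, in an intron, chr7:31770493-31770659: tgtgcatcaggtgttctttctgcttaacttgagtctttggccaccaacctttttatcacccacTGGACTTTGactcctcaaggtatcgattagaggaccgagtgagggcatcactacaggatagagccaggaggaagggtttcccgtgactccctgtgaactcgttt
The first 3 are centred within 1 kb of a transcription start site (TSS), with scores of 131.9, 102.2 and 91.9. The *Elovl6* peak lies 32.6 kb inside the gene and scored 119.7. The peak of the *Hamp* window lies 41.5 kb upstream of the *Hamp* start, in an intron of another gene, and scored 114.0. Of the 5 peaks, the *Proz* peak was the single one not covered by HDAC3 and PROX1.

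A second set shows strong peaks with a related element or with none. The peak 13.1 kb upstream of the albumin gene *Alb* holds CAAAGTTCA. So does the peak 28.5 kb upstream of *Pck1*, which encodes the gluconeogenic enzyme PEPCK. That *Pck1* peak is 5.02 kb from the nearest TSS, which is of another gene. The peak in the cation channel gene *Trpm8*, the highest in the list, holds the element with the substitution C7G, counted from its first base. The promoter peaks of *Rdh7*, a retinol dehydrogenase gene, and of *G6pc*, which encodes glucose-6-phosphatase, hold neither the element nor any single substitution of it, and are in lower case throughout. Capitals mark these 9-base matches on either strand.
Alb upstream, chr5:90876719-90876878: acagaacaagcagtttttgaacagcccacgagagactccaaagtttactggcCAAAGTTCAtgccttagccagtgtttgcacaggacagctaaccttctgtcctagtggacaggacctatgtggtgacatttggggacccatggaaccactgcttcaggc
Pck1 upstream, chr2:172949971-172950123: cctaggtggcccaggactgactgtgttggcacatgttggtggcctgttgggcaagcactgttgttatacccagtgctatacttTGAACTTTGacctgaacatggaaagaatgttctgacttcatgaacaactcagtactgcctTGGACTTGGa
Trpm8 intron, chr1:90184738-90184905: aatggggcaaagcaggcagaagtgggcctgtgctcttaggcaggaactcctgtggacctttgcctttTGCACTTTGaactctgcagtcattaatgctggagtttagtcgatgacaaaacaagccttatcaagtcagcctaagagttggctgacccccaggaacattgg
Rdh7 promoter, chr10:127325856-127326018: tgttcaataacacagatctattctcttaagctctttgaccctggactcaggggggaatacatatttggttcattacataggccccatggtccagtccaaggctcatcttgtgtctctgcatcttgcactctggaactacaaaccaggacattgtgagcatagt
G6pc promoter, chr11:101228854-101229008: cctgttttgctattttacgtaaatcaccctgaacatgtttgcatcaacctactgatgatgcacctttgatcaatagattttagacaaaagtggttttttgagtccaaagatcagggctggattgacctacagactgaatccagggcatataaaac
Their scores were 112.6, 125.3, 160.2, 138.5 and 106.5. The *Pck1* peak holds a second match, A2C. HDAC3 and PROX1 covered all 5.

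Each peak carries the authors' HOMER peak score, on a scale that is not stated with the list. Peaks were ranked into 5 score groups, with ties kept together, from the lowest group at 20.3 to 28.3 (5050 peaks, median 24.5) to the highest at 66.9 to 160.2 (4774 peaks, median 82.9). The 1000 highest peaks scored at least 98.5 and the 100 highest at least 125.8. The narrowest peak spanned 85 bp and the median peak 156 bp. The peak names are numbered within each chromosome, and the highest numbers sum to 31035, so that 6782 numbers (21.9%) do not appear among the listed peaks.

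HNF4α peaks lay mostly in introns and between genes. Introns of protein-coding genes held 46.3% of peak centres (95% Wilson interval 45.6 to 46.9), intergenic sequence 39.6% (39.0 to 40.3), promoters, within 1 kb of a TSS, 10.9% (10.5 to 11.3), and exons 3.24% (3.02 to 3.47). Cutting the genome into 200 bp tiles gave 35.0% intron, 60.5% intergenic, 2.30% promoter and 2.14% exon, so promoters had the highest ratio of the 4. Of the 785 exonic peaks, 385 were in coding sequence and 400 in untranslated parts. The median distance to a TSS was 15.7 kb.

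Promoter peaks were not the strongest ones. Their median score was 39.6, against 42.4 for the distal peaks, and the promoter share was 11.9% (11.0 to 12.8) in the lowest score group and 9.28% (8.49 to 10.1) in the highest. HDAC3 and PROX1 covered 35.9% (34.1 to 37.8) of promoter peaks and 55.8% (55.1 to 56.4) of distal peaks. A peak counts as covered when at least 50% of it lies under a peak of each list. The covering peaks of both lists share their coordinates, so the count follows the authors' own class of HDAC3-PROX1 peaks. Promoter windows were also richer in G and C, with a median of 52.5% against 47.0%.

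The chromosomes differed in density. Autosomes carried 7.82 to 15.1 peaks per Mb, the lowest on chromosome 14 and the highest on chromosome 19. The X chromosome carried 1.61 per Mb, 268 peaks in all, with a median score of 33.5 and the core element in 9.33% of them. The Y chromosome carried 2 peaks.

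The core element stood out against nearby sequence. It was found in 1427 peak windows, 5.88% (5.59 to 6.19), and in 0.309% (0.264 to 0.363) of the windows 2 kb to either side, a ratio of 19.0 (Pearson's chi-square test, statistic 2370). Tiles of the whole genome held it at 0.255%. The 32851 RefSeq promoter sequences of GRCm38 held it at 0.475%, but they are longer than the windows, so the shares are not on the same scale. The form with T at the seventh base, CAAAGTTCA, was found in 993 windows, 4.09% (3.85 to 4.35), against 0.293% of flanks, a ratio of 14.0.

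The element sat close to the peak centre. The median distance between the 1445 copies of the core and the centre of their peak was 17.5 bp, and 90.4% of them lay within 50 bp. The median was 16.5 bp in the lowest and 19.5 bp in the highest score group.

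**Figure D1:**
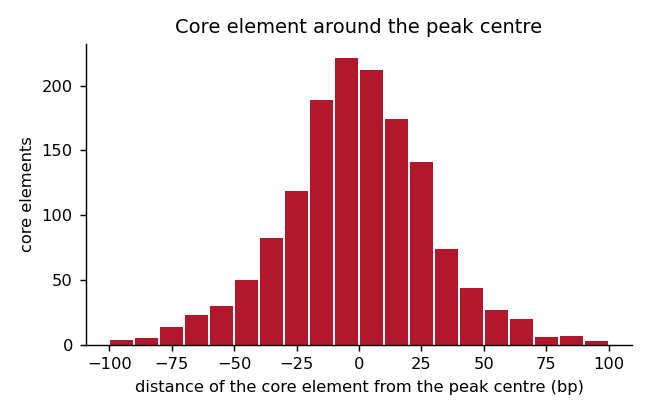
Number of core elements in bins of 10 bp by their distance from the peak centre in bp, over the 1445 copies in 200 bp windows of all HNF4α peaks. The copies pile up at the centre, with 90.4% within 50 bp of it.

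Single substitutions of the 9 bases were enriched in peaks to different degrees. The ratio of peak to flank share was highest for the exact element at 19.0, followed by A9G (CAAAGTCCG) at 16.8, C7T at 14.0, A2G at 10.0, A3G at 8.86 and C7A at 8.82. At the other end, T6C had a ratio of 1.18, T6A of 1.39 and G5A of 1.74. A9G and A2G were rare, in 143 and 85 peak windows and only 17 flank windows each, so their ratios rest on few counts. A3G (CAGAGTCCA) was in 833 peak windows. Counting the exact element and all its single substitutions, 8406 peaks (34.7%) held a match, against 6.34% of flanks. The other 65.3% of peaks held none, and their median score was 39.6.

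The 13-base runs that end in the element were spread over many sequences. The 3 most frequent runs of the exact core and the 2 most frequent of the form with T at base 7, with the element in capitals, were these.
run 1: agtcCAAAGTCCA
run 2: agagCAAAGTCCA
run 3: gttcCAAAGTCCA
run 4, with T at base 7: agtcCAAAGTTCA
run 5, with T at base 7: aggtCAAAGTTCA
They were found in 23, 22, 21, 36 and 30 peak windows and in 0, 1, 2, 3 and 2 flank windows. Run 1 had a median score of 60.3 and run 5 a median of 49.0. In run 5, AGGTCA overlaps the first 2 bases of the core and forms a tandem repeat with it. At position -3 before the core, G was present at 35.3% of the copies in peaks and at 14.9% of those in flanks.

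The share of peaks with the core element rose with the score. It was 3.56% (3.09 to 4.11), 4.13% (3.61 to 4.73), 4.93% (4.35 to 5.59), 7.22% (6.53 to 7.98) and 9.70% (8.89 to 10.6) from the lowest to the highest group. The highest group exceeded the lowest by 6.13 percentage points (chi-square p = 1.1e-34). In the 100 highest peaks it was 14.0% (8.53 to 22.1). The median score was 41.0 for peaks without either form of the element, 49.5 for the 2364 peaks with 1 copy and 62.7 for the 47 with 2 copies.

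**Figure D2:**
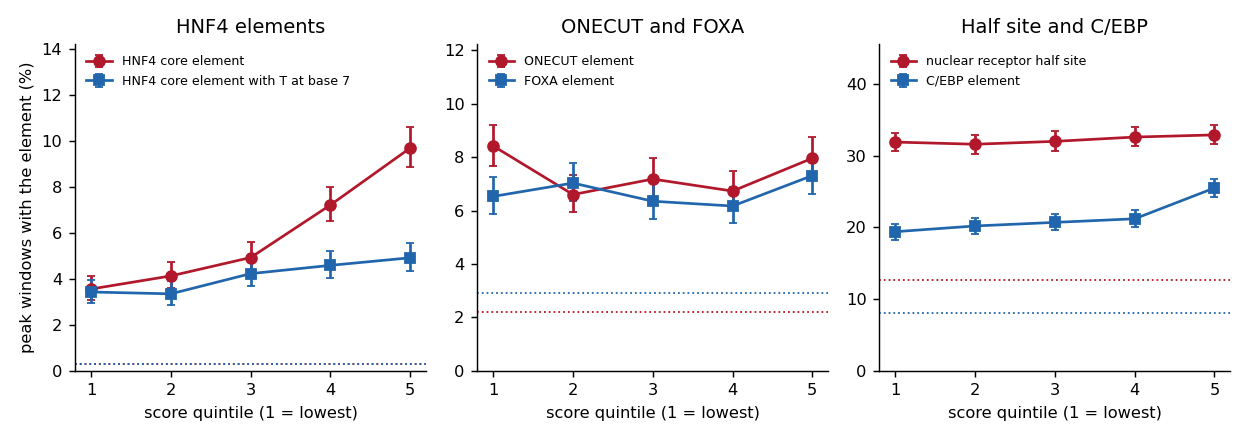
Percentage of 200 bp peak windows with each element (y axis) in the 5 score groups, from lowest to highest (x axis), with 95% Wilson intervals. Dotted lines give the share in flanking windows. The core element climbs from 3.56% to 9.70%, while the AGGTCA hexamer, the red circles of the right panel, stays between 31.6% and 32.9%.

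Promoter peaks held the core less often than distal peaks, 4.63% (3.89 to 5.50) against 6.04% (5.73 to 6.36), a difference of -1.41 percentage points (chi-square p = 0.0037). The sign was not the same at every score. In the 4 lower groups the differences were -1.77, -1.72, -2.27 and -2.14 points, with chi-square p between 0.021 and 0.087, and in the highest group promoters had 12.2% against 9.44% (p = 0.063). These 5 p-values were not adjusted.

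Elements of the other liver factors were also more frequent in peaks than in flanks, at lower ratios than the HNF4 element. Of 21 motifs searched on both strands, the AGGTCA hexamer was in 32.2% of peak windows and 12.7% of flanks, the C/EBP element TTGCNNAA in 21.4% and 8.08%, the ONECUT element TATTGAT in 7.38% and 2.19%, and the FOXA element TGTTTAC in 6.68% and 2.91%. The HNF1 element GTTAATNA was in 3.06% and 2.04%. The CTCF core AGGGGGC, which marks chromatin loop anchors, was in 2.14% (1.97 to 2.33) of peaks and 2.27% (2.14 to 2.41) of flanks, intervals that overlap. The ETS element CCGGAAG was in 4.10% of promoter peaks and 0.759% of distal peaks. The direct repeat of AGGTCA with a spacing of 1 base, complete in every letter, was in 0.247% and 0.0804%. The RefSeq promoter sequences, which are longer than the windows, held AGGTCA at 16.3%, the C/EBP element at 10.8% and the ONECUT element at 2.05%. They held the FOXA element at 3.65%, the HNF1 element at 2.54%, the CTCF core at 10.6% and the ETS element at 8.86%.

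These elements divided differently over the peaks. Peaks with the HNF4 core held the ONECUT element at 3.29% (2.49 to 4.35) and peaks without it at 7.64% (7.30 to 7.99). For AGGTCA the shares were 21.7% (19.7 to 23.9) and 32.9% (32.3 to 33.5), and for the C/EBP element 17.9% (16.0 to 19.9) and 21.6% (21.1 to 22.1). The C/EBP element rose from 19.4% (18.3 to 20.5) in the lowest to 25.5% (24.3 to 26.8) in the highest score group.

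Peaks with the core element were covered by HDAC3 and PROX1 less often than peaks of like score without it. In the lowest score group 8 of 180 peaks with the core were covered, 4.44% (2.27 to 8.52), against 30.6% (29.3 to 31.9) of those without it. The next groups gave 10.9% against 41.0%, 19.8% against 53.5%, and 40.2% against 66.6%. In the highest group the shares were 76.5% (72.4 to 80.1) and 84.2% (83.0 to 85.2). All 5 differences passed the chi-square test, with Benjamini-Hochberg adjusted p of 5.5e-14, 2.3e-17, 4.1e-23, 4.1e-23 and 2.3e-05. Coverage rose with the score in both sets, and the differences were -26.2, -30.1, -33.6, -26.5 and -7.70 percentage points from the lowest to the highest group.

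**Figure D3:**
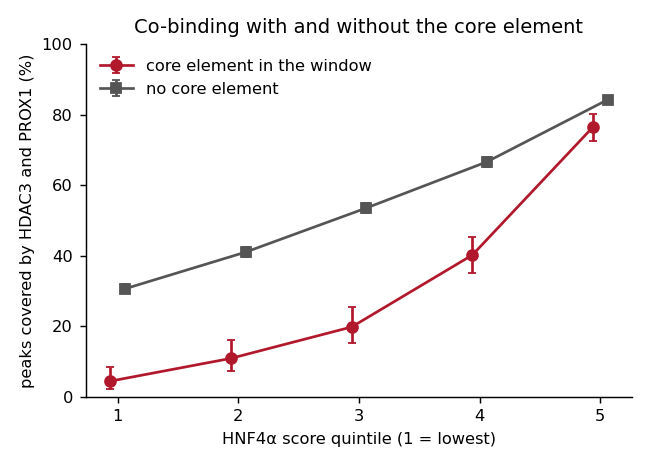
Percentage of HNF4α peaks covered by both HDAC3 and PROX1 (y axis) in the 5 score groups (x axis), for peaks with the core element (circles) and without it (squares), with 95% Wilson intervals. The circles lie below the squares in each group, at 4.44% against 30.6% in the lowest and 76.5% against 84.2% in the highest.

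The core element was rarer in the other lists. It was in 2.72% (2.51 to 2.94) of HDAC3 windows and 3.13% (2.93 to 3.34) of PROX1 windows. HDAC3 peaks that met an HNF4α peak held it at 4.16% and the rest at 0.671%, and for PROX1 the shares were 4.93% and 0.949%. Promoters made up 8.55% of HDAC3 and 7.83% of PROX1 peaks.

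Genes were scored by the peaks in a window from 50 kb upstream of the gene start to 2 kb past its end. Of 22367 protein-coding genes, 11126 (49.7%) had at least 1 peak, 2376 (10.6%) had 5 or more and 2498 (11.2%) had a peak within 1 kb of one of their own TSSs. A single peak was counted for 3843 genes, and 330 genes had 10 or more. Windows overlap, so 35.2% of peaks counted for more than 1 gene and 17.3% counted for none. The share of genes with a peak was 26.6% for the shortest of 5 groups by window length and 63.1% for the longest.

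The highest summed scores belonged to long genes. *Gm20388* led with 142 peaks and 6603.6, but its gene model gives a window of 4487 kb that takes in many other genes. Next came *Arhgap26* with 34 peaks and 1841.9, *Prkce*, a protein kinase C, with 32 peaks and 1704.8, *Lpp* with 32 and 1536.7, the nuclear receptor gene *Rora* with 32 and 1495.2 and the NFI factor gene *Nfia* with 28 and 1424.6. *Fgfr2* and *Ptprd* reached 1286.6 and 971.4 in windows of 3061 and 2323 kb. Shorter windows among the leading 25 were those of *Ppara*, the fatty acid sensing receptor, with 15 peaks in 120 kb and 1067.6, *Ergic1* with 16 peaks in 147 kb and 1032.8, *Aldh1l1*, a folate enzyme gene, with 22 peaks in 166 kb and 1235.9, and the growth hormone receptor gene *Ghr*, with 18 peaks in 318 kb and 958.4.

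Peak density picked other genes. Among genes with 5 or more peaks, *Apoa5*, which encodes an activator of triglyceride clearance, had 12 peaks or 21.7 per 100 kb, *Hamp* 11 or 20.5, *Gstp1*, a glutathione transferase gene, 11 or 20.2, and *Gcgr*, the glucagon receptor gene, 12 or 19.9. The 11 peaks of the *Hamp* window formed a cluster over *Usf2*, *Lsr* and *Fam187b*, and the *Hamp* promoter peak scored 23.1. *Dgat2*, which encodes the last enzyme of triglyceride synthesis, had 15 or 18.5. *Apoc3*, a neighbour of *Apoa5* that encodes a lipase inhibitor, had 10 or 18.3, partly the same peaks.

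The highest single peaks lay at various distances from genes. The highest intergenic peak, at 146.5, was in no gene window. The top peak, 160.2, was in an intron of *Trpm8*, 10.6 kb from its start and also within the window of *Hjurp*. Among the next highest in gene windows, a peak of 140.4 lay 17.1 kb upstream of the complement inhibitor gene *C4bp*, and one of 139.5 lay in an intron of *Tns1*, 110.0 kb from its start. The *Rdh7* promoter peak scored 138.5, and an intronic peak of *Hsd17b2*, which encodes a steroid dehydrogenase, 138.1. Among promoters, *Rdh7* was followed by *Dak* and *Mgst1* at 132.9 each, *9530008L14Rik* at 132.4, *Cfb* at 131.9 and *Pcyt2* at 131.0. The promoter of *Nags*, which encodes the enzyme that makes the activator of the urea cycle, scored 124.9 and that of the glycogen synthase gene *Gys2* 123.9.

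The genes of secreted liver proteins carried many peaks, often at the promoter. Of 23 coagulation genes 22 had a peak, 11 had 5 or more, and 20 (87.0%) had a promoter peak, against 11.2% of all genes. Complement gave 19 of 19 with a peak and 14 (73.7%) with a promoter peak, plasma carriers 25 of 26 and 18, apolipoproteins 14 of 15 and 10. The members without a peak were *F8*, *Serpina7* and *Apod*. Median windows of these 4 lists were 71.4, 87.8, 60.9 and 55.1 kb, beside 67.4 kb for all genes. *F11*, which encodes coagulation factor XI, led the coagulation list with 11 peaks and a summed score of 663.4, followed by *Klkb1* (536.2), *Serpina10* (450.8) and *Serpinf2* (412.7). *C8a* led complement with 713.3, *Alb* the carriers with 670.4 over 10 peaks, and *Apoa5* the apolipoproteins with 801.0.

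**Figure D4:**
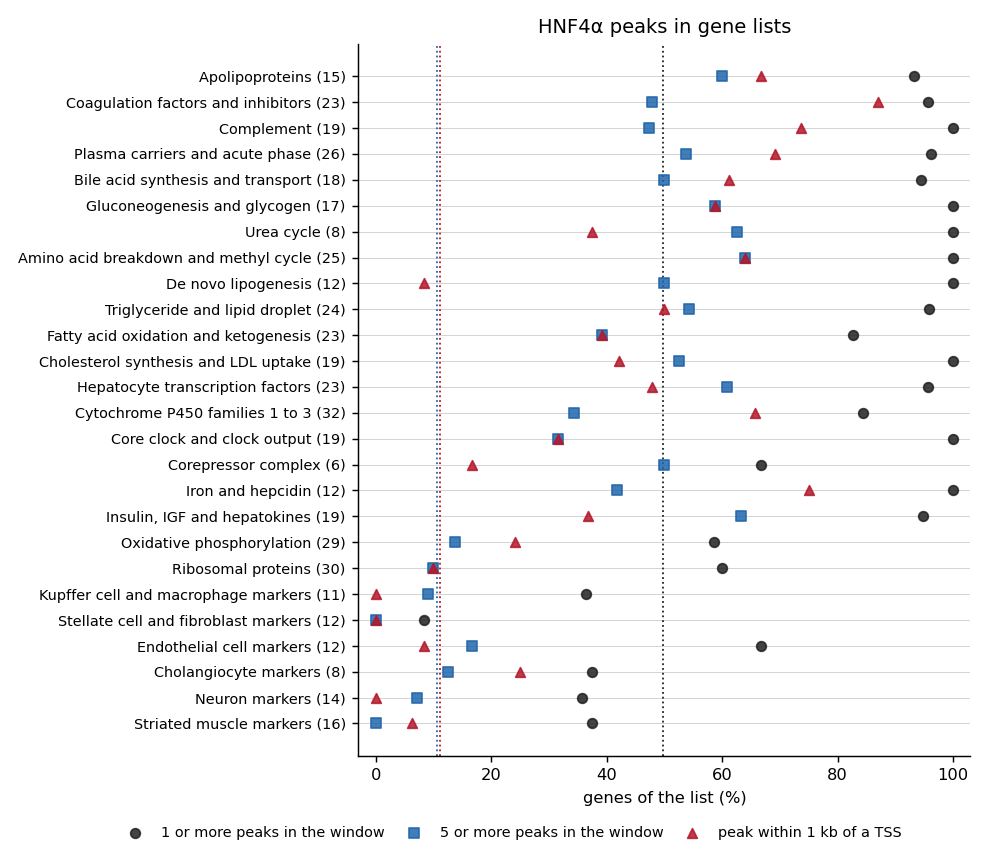
Percentage of the genes of each list (x axis; lists on the y axis, number of matched genes in brackets) with at least 1 HNF4α peak in the gene window (circles), with 5 or more (squares) and with a peak within 1 kb of a TSS (triangles). Dotted lines give the same over all 22367 genes, 49.7%, 10.6% and 11.2%. Coagulation genes reach 87.0% for promoters and de novo lipogenesis genes 8.33%.

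The scores of promoter peaks differed among these 4 lists. In the windows of the coagulation genes, the promoter peaks had a median score of 60.8 and the other peaks 45.5, and in those of the apolipoproteins 76.5 and 62.2. In those of the plasma carriers the medians were 50.6 and 48.8, and in those of complement 45.2 and 50.4. A promoter peak here may also be that of a neighbouring gene. Over all gene windows the medians were 39.6 and 42.4. The promoter peak of *Apob*, which encodes the structural protein of VLDL, scored 120.6, that of *Ahsg* 103.2, that of *Proz* 102.2, that of *Proc*, which encodes protein C, 97.1 and that of *Apoa2* 97.1. The promoter peak of prothrombin, *F2*, scored 77.7 and that of *Alb* 59.8.

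Coverage by HDAC3 and PROX1 was uneven within the coagulation genes. Over the 89 distinct peaks in their windows 61.8% were covered, beside 52.3% of all peaks in gene windows. At *F11*, 8 of 11 peaks were covered, and at *Fga*, which encodes the fibrinogen α chain, 5 of 5. The neighbouring genes *F7*, *F10* and *Proz* on chromosome 8 had 4, 5 and 6 peaks, and none was covered. Their windows overlap, so these are largely the same peaks. The *F7* window held its promoter peak at 65.0 and a group of 3 at 37.7, 32.0 and 63.6 between 10.6 and 11.8 kb downstream. Of the 2376 genes with 5 or more peaks, 62 had none covered and 143 had all covered.

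Metabolic gene lists differed in their share of promoter peaks. All 17 genes of gluconeogenesis and glycogen had a peak and 10 had a promoter peak. *Pcx*, which encodes pyruvate carboxylase, led with 16 peaks and 808.5, followed by *Slc2a2* (569.2), *Pck1* (500.8) and *G6pc* (418.0). The *Pck1* peaks scored 73.0, 45.7, 28.3, 125.3, 21.2, 41.9, 52.3 and 113.1 from the far upstream end to the promoter, so that 2 of 8 were above 100. All 25 genes of amino acid breakdown had a peak and 16 a promoter peak, led by *Gldc* of glycine cleavage with 777.5, *Ahcy* (606.5), *Hpd* (507.4) and *Bhmt* (506.1). All 8 urea cycle genes had a peak and 3 a promoter peak, led by *Slc25a13* (482.9), *Asl* (449.4), *Cps1* (296.5) and *Slc25a15* (293.1).

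Bile acid genes had a peak in 17 of 18 cases, 11 of them at the promoter. *Nr1h4*, the gene of the bile acid receptor FXR, had 13 peaks and 720.9, *Cyp8b1* 9 and 532.4, *Slco1b2* 6 and 437.7 and *Abcb4* 6 and 401.5. *Cyp7a1*, the rate-limiting enzyme of bile acid synthesis, had 2 peaks, of which the promoter peak scored 94.7. *Hsd3b7* had none. Of the cytochrome P450 genes 27 of 32 had a peak and 21 a promoter peak, led by *Cyp2c44* (625.2), *Cyp2d9* (582.3), *Cyp2d10* (577.1) and *Cyp3a11* (559.3). *Cyp2b9*, *Cyp2c40*, *Cyp1b1*, *Cyp2a4* and *Cyp3a41a* had none. Some members of these families are close copies of one another, and reads could be shared or lost among those, which was not tested.

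The lipid lists differed at the promoter. All 12 genes of de novo lipogenesis had a peak and 6 had 5 or more, and 1 (8.33%) had a promoter peak, *Acacb* at 38.2, beside 11.2% of all genes. *Acaca*, the first committed enzyme, had 9 peaks and 515.6, *Elovl6* 7 and 487.7, *Mlxipl*, which encodes the sugar-responsive factor ChREBP, 6 and 380.4, and *Elovl5* 9 and 363.3. The highest *Acaca* peak, 103.7, lay 12.3 kb inside the gene, and the highest peak of the fatty acid synthase window, *Fasn*, 114.0, lay 6.75 kb upstream. Triglyceride and lipid droplet genes had a peak in 23 of 24 cases and a promoter peak in 12, such as that of the acyltransferase gene *Agpat2* at 92.8. *Dgat2* led with 892.1, followed by *Gpam* (769.4), *Lipc* (665.7) and *G0s2* (596.1), and *Vldlr* had none. The promoter peak of *Dgat2* was its weakest at 22.6, while 10 of its 15 peaks were covered by HDAC3 and PROX1.

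Fatty acid oxidation genes had a peak in 19 of 23 cases, led by *Ppara* (1067.6). The ketogenic *Bdh1* (418.3) was also among the highest 4. *Acadvl*, *Acot2*, *Fgf21* and *Slc25a20* had none. Cholesterol genes had a peak in 19 of 19 cases and a promoter peak in 8, led by the HDL receptor gene *Scarb1* with 15 peaks and 689.7, with *Abca1* (538.1) and *Insig1* (392.5) also among the highest 4. Iron genes had a peak in 12 of 12 cases, led by *Hamp* (544.2), *Slc39a14* (424.1), *Cp* (315.8) and *Hamp2* (250.7). In the *Hamp* window 3 of 11 peaks were covered by HDAC3 and PROX1. Insulin and growth factor genes had a peak in 18 of 19 cases, led by *Ghr*, *Gcgr* (715.8), *Prlr* (647.4) and *Insr* (618.2).

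Genes of the liver's own regulators were bound as well. Of 23 hepatocyte transcription factor genes 22 had a peak and 14 had 5 or more. *Ppara*, *Nr5a2* (744.8), *Nr1h4* and *Rxra* (573.0) led, and *Onecut1* had no peak. *Hnf4a* itself had 9 peaks and 436.0, at scores of 39.6, 29.7, 49.5, 100.4, 73.5, 43.3, 36.8, 23.1 and 40.1. None was within 1 kb of an *Hnf4a* TSS, and the 2 highest lay 34.0 and 34.9 kb inside the gene, counted from its outermost start. The peak of 100.4 was 3.79 kb from the nearest annotated TSS. *Prox1* had 7 peaks and 367.6. Of the corepressor complex genes *Ncor1* had 9 peaks and 415.6, *Tbl1xr1* 7 and 328.4 and *Tbl1x* 3 and 114.9, while *Hdac3* and *Gps2* had none.

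The clock genes had a peak in 19 of 19 cases. Beside *Rora*, *Per2* had 463.7 and *Hlf* 454.8, and the list median was 3 peaks and 133. At *Nr1d1*, which encodes Rev-erbα, 2 peaks reached 32.5 at most, and *Clock*, *Per1*, *Per3*, *Bhlhe40* and *Bhlhe41* had 1 peak each, at 28.7 to 39.1, and *Dbp* had 1 at 73.0.

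**Figure D5:**
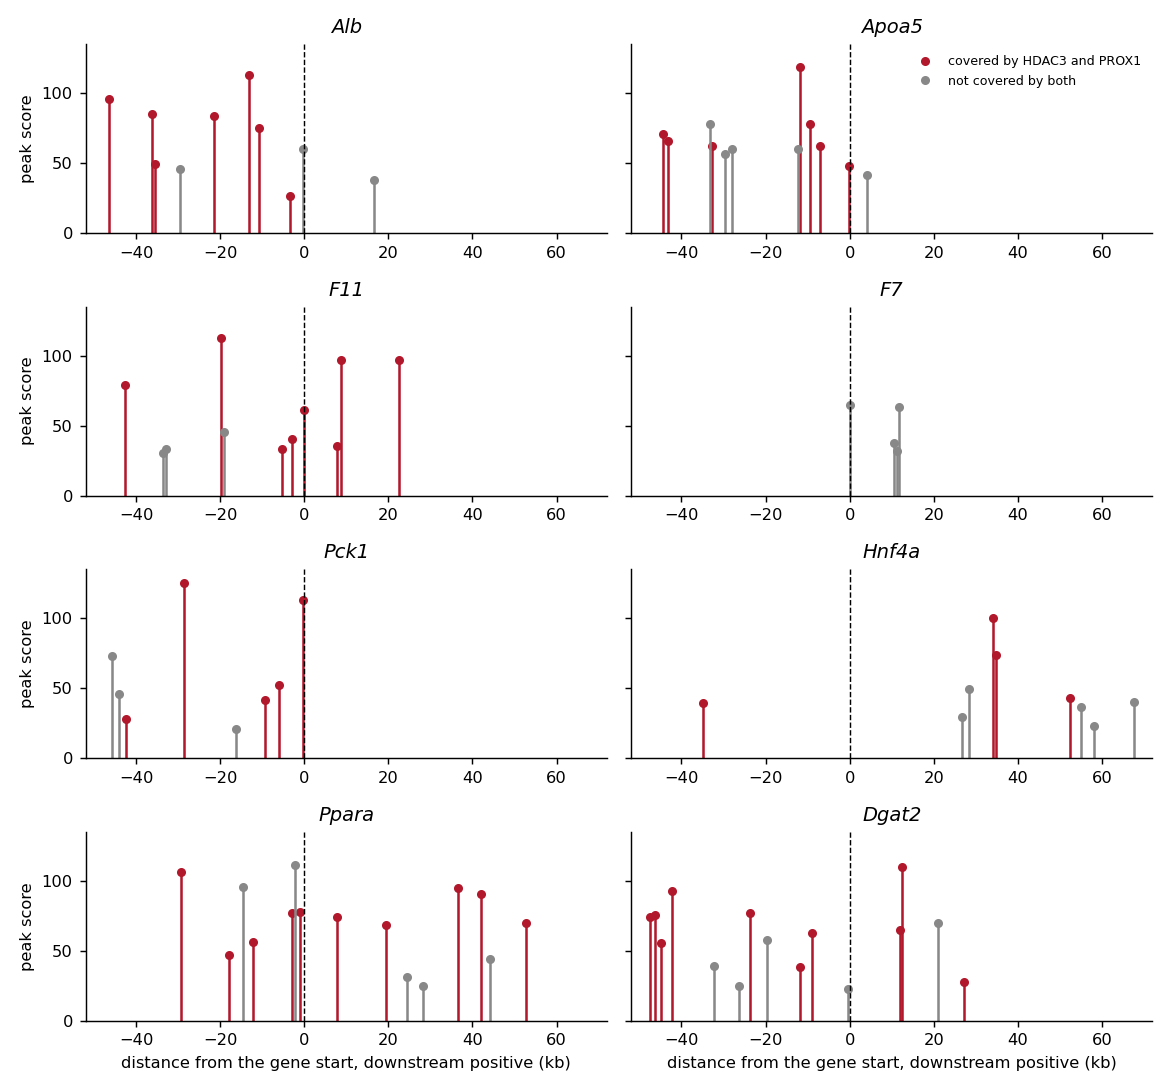
Score of each HNF4α peak (y axis) by its distance in kb from the start of the gene, downstream positive (x axis), in 8 gene windows. Peaks covered by HDAC3 and PROX1 are red and the others grey. *F7* has 4 grey peaks, and at *Hnf4a* the highest peaks, 100.4 and 73.5, lie inside the gene.

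Housekeeping genes and markers of other cells are set beside the 49.7% of all genes with a peak and the 11.2% with a promoter peak. Oxidative phosphorylation genes had a peak in 17 of 29 cases (58.6%) and a promoter peak in 7, led by *Atp5o* (549.5), *Atp5d* (518.2), *Ndufv1* (378.4) and *Uqcrq* (274.7). Ribosomal protein genes had a peak in 18 of 30 and a promoter peak in 3, led by *Rpl23* (390.5), *Rps14* (267.2) and, among the highest 4, *Rps16* (225.1). Of the Kupffer cell and macrophage markers 4 of 11 (36.4%) had a peak and none at its promoter, with *Itgam* (242.2), *Lyz2*, *Cd68* and *Csf1r* holding 1 to 5 and *Clec4f*, *Emr1*, *Vsig4*, *Marco*, *Timd4*, *Cd5l* and *Cd163* none. Stellate cell and fibroblast markers had 1 of 12, *Acta2* at 58.0.

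Endothelial markers had a peak in 8 of 12 cases (66.7%) and 1 promoter peak. *Stab2* had 9 peaks and 477.5, *Lyve1* 5 and 278.0, *Pecam1* 4 and 144.7 and *Stab1* 2 and 117.3, whereas *Cdh5*, *Kdr*, *Tek* and *Clec4g* had none. Cholangiocyte markers had 3 of 8, among them *Sox9* (49.4) and *Spp1* (26.9). Neuron markers had 5 of 14, led by *Slc17a7* (251.1), *Syt1*, *Rbfox3* and *Slc17a6*, and striated muscle markers 6 of 16, led by *Actc1* (234.6), *Tnnt2*, *Myog* and *Myl1*. Windows include neighbouring genes, so a peak in a marker's window need not belong to it. The hepatocyte lists, the corepressor genes aside, ran from 82.6% for fatty acid oxidation to 100%.

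HNF4α peaks ran in clusters. The nearest neighbour of a peak lay at a median gap of 5.83 kb, 9.02 kb in the lowest score group and 4.36 kb in the highest. Joining peaks over gaps of at most 12500 bp left 8021 single peaks (33.1%) and 737 clusters of 5 or more, with 4687 peaks (19.3%). The single peaks had a median score of 37.7, the core element in 7.11% and coverage by HDAC3 and PROX1 in 41.5%. Peaks of the large clusters had 47.6, 4.93% and 64.6%. The 57 clusters of 10 or more spanned up to 89.0 kb.

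The cluster with the highest summed score lay outside protein-coding genes. It held 19 peaks, 1235.4 in all, between 167624746 and 167713733 of chromosome 2, 109 kb from *Cebpb*, which encodes C/EBPβ, and 43.8 kb from *Ptpn1*, which encodes a phosphatase of insulin signalling. HDAC3 and PROX1 covered 11 of the 19, and 1 held the core element. The next clusters lay over *Cyb5* (18 peaks, 1197.4), *Ppara* (15, 1067.6), *Zmiz1* (15, 944.3), *Shb* (17, 925.5), *Cat* and *Elf5* (13, 920.6), *Ergic1* (14, 919.7), *Dgat2* and *Mogat2* (15, 892.1) and *Rbm47* (12, 811.9). The tenth, with 12 peaks and 790.1, lay between *Ly86* and *Rreb1*, 89.0 kb from the latter. At *Ppara* the peaks scored 24.5 to 111.2, 10 of 15 were covered and none was within 1 kb of the TSS. *Cat*, which encodes catalase, had the core element in 3 of the 13 peaks of its cluster, and the clusters over *Zmiz1*, *Shb*, *Ergic1* and *Rbm47* had it in none.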

How the data were processed

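By the methods, the authors mapped reads with Bowtie 0.12.7 on mm9 (both also in the submitters' processing notes), removed duplicates, pooled replicates, called peaks with HOMER against IgG and kept HNF4α peaks above 2 rpm. A figure legend adds a filter on the *Hnf4α* knockout. The deposited list gives positions and a HOMER peak score, with no read counts, so the depth behind a peak is not given by the files used here. The HDAC3 and PROX1 peak lists hold positions without a score.

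Peak centres were annotated with protein-coding genes of GENCODE vM1 on NCBIM37, which is mm9. Motifs were counted as exact matches in windows of 200 bp, and over the full length of the RefSeq promoter sequences, which are longer. Shares carry 95% Wilson intervals and were compared with the study's test for peaks, Pearson's chi-square (two-sided, no continuity correction).

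Members, lists and motifs were chosen with earlier results of these data known, so no list is independent evidence. Genes named are the 25 with the highest summed score, the 10 by single peak and by density, the 4 highest of each list, members without a peak and genes at the 10 highest clusters. From these the most telling are printed, and some are not reported here. Other members and promoters named were picked after their values were seen. *Hmgcs1* and *Enho* did not match the annotation.

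The code was checked on simulated data. Python 3.11.15, scipy 1.17.1, pandas 2.3.3, pysam 0.24.0 and samtools 1.23.1 were used. Alternatives changed windows, flanks, thresholds, promoter width, overlap, gene windows and gaps. Other measurements of the series were not analysed here.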

Additional observations from a re-analysis of the deposited data

How the results depend on the processing

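No paired analysis was possible because the 2 libraries were pooled in 1 list, and leaving out a replicate could not be done for the same reason. Of the alternative values for the main results, 39 kept their direction and their side of the threshold, or for counts stayed within 1.5 times, and the 8 that did not follow. The promoter share was 7.23% within 500 bp of a TSS, 16.2% within 2 kb, 9.91% among scores above the median and 13.9% with all genes in place of protein-coding ones. The lower core share of promoter peaks shrank to -0.598 percentage points (chi-square p = 0.47) among scores above the median. Clusters of 5 or more peaks numbered 90 with a gap of 5 kb, 1309 with 25 kb and 164 among scores above the median. The gap in HDAC3-PROX1 coverage between peaks with and without the core passed the test in all 5 score groups under 75% overlap and with T allowed at base 7, and under 3 alternatives chosen after seeing the data: an overlap of 1 base, distal peaks, and single substitutions counted as the element. Genes with a peak numbered 12178 within 50 kb of the TSS, beside 11126 in the main setting. They numbered 7829 with windows from 10 kb upstream and 7750 among scores above the median. With 50 kb to either side of the TSS, 25 of the 26 gene lists stayed within 1.5 times, the exception being neuron markers. The lists carry no replicate and no depth, so a missing peak says only that none passed the authors' limits.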
